A study of Mus musculus with 10 samples.

Results

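Collagens are the main structural proteins of the extracellular matrix, and the genes described here are those that encode their chains. A gene was taken as a member where a probe's accession led to a mouse symbol made of Col, a number, the letter a and a further number. This gave 44 collagen chain genes with 70 probes, among 23462 named genes on the arrays. They comprised 11 chains of the fibrillar types, 6 chains of type IV, 6 of type VI, 9 of the FACIT group, 4 transmembrane chains, 2 multiplexins, 3 short-chain network chains and 3 others.

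Messenger RNA was measured in single testes of male C57BL/6N mice at 6 weeks of age, with 1 array per testis. The 5 R mice were born to dams that received 50% of the control dams' food from day 6.5 of pregnancy, and they were nursed by unrelated control dams. The 5 C mice were born to dams fed freely and stayed with their own mothers, so fostering differed together with the prenatal diet. All 10 mice ate freely after weaning, and no label says which of them were litter mates, so p-values measure the spread between these animals and take each as independent.

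Collagen chains wind 3 at a time into a triple helix inside the endoplasmic reticulum, after hydroxylation of prolines and lysines. Fibrillar collagens form the cables of interstitial tissue, type IV forms the sheet-like network of basement membranes, and FACIT collagens lie on the surface of fibrils. In the testis, the seminiferous tubules rest on a basement membrane with type IV collagen, and peritubular myoid cells and fibroblasts surround it with fibrillar collagen.

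Over the 10 arrays, the processed signal had 75th percentiles of 804 to 1019, no spot was saturated, and 56.6% to 67.4% of spots were well above background. Each level below is a log2 signal, which is the processed intensity on the log2 scale set against the 75th percentile of its own array, so that 0 marks that percentile. Probes are not comparable with each other on this scale, and only differences between arrays for the same gene are read. The 8 germ cell genes checked for the tissue label were above background on every array, and 6 of 6 epididymis markers were above background on no array. The arrays lay on 2 slides, with 4 R and 2 C testes on slide 1 and 1 R and 3 C testes on slide 2. C replicate 2 stood apart, with the highest summed Sertoli and Leydig marker levels of all 10 arrays. The authors' deposited table set R replicate 1 among controls and C replicate 5 among tested animals, against the labels, which were followed here.

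The promoter sequences of 7 chains that the results turn on are given first: Col1a2, Col3a1 and 5 of the 6 type IV genes, which lie next to each other in pairs of opposite orientation. Col1a1 and Col4a3 are named only. Each window runs from 250 bases before to 50 bases after the annotated start, is written 5′ to 3′ on the gene's own strand, and comes from RefSeq on GRCm38.p6. Capitals mark 3 motifs on either strand: the CCAAT box, the GC box with the letters GGGCGG, and the TATA box with the letters TATAAA.
Col1a2 (chr6:4505368-4505667, plus strand): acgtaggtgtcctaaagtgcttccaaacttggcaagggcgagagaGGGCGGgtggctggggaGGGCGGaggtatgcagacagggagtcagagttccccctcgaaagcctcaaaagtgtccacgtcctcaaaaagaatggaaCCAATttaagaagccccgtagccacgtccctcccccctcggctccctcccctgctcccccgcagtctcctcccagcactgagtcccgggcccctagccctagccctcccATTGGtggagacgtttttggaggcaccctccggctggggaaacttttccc
Col3a1 (chr1:45311288-45311587, plus strand): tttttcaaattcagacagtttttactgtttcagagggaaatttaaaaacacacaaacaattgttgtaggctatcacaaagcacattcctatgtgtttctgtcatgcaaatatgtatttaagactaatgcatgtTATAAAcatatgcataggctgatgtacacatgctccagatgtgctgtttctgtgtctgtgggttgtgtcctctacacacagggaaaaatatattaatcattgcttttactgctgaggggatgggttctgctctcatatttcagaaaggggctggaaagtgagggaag
Col4a1 (chr8:11312777-11313076, minus strand): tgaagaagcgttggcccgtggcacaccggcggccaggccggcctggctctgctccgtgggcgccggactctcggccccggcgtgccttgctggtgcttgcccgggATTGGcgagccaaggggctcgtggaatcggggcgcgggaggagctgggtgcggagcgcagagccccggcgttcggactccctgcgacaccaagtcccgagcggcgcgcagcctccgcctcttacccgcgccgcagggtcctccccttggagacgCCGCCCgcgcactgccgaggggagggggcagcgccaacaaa
Col4a2 (chr8:11312555-11312854, plus strand): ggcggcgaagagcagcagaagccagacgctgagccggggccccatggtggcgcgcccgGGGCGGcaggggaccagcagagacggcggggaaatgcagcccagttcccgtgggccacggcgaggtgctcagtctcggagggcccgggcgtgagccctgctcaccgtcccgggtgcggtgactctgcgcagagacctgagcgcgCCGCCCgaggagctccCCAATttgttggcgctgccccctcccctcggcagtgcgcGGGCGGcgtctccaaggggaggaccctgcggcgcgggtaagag
Col4a4 (chr1:82586800-82587099, minus strand): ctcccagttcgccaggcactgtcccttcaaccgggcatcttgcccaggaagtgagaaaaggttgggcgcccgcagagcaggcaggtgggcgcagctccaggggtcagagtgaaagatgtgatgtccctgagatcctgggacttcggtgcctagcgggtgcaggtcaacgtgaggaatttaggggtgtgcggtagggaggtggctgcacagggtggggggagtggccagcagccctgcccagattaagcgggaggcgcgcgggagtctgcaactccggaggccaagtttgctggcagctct
Col4a5 (chrX:141475169-141475468, plus strand): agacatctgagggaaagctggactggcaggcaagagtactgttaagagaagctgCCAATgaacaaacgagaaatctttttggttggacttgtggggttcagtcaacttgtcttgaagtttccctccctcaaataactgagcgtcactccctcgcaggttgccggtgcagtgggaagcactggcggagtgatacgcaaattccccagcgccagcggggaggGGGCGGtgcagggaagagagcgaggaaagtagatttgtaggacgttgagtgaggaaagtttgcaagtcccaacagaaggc
Col4a6 (chrX:141474027-141474326, minus strand): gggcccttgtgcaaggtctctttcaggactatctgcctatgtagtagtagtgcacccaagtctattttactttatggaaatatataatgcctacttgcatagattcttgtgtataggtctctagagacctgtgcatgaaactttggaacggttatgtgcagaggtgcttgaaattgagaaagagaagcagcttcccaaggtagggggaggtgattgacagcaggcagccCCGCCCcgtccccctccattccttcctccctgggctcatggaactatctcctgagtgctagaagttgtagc

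Of the 44 members, 35 had a window in the same RefSeq table. The Col4a1 and Col4a2 windows face away from each other and share 78 bases. With 1 window counted per gene, GGGCGG was found in 21 of the 35 genes (60.0%), against 35.9% of all 27025 genes with a window. CCAAT was found in 11 (31.4%) against 37.9%, and TATAAA in 5 (14.3%) against 14.2%. The uncounted other window of Col18a1 held GGGCGG and CCAAT, and that of Col9a1 held CCAAT. No difference is therefore read from the CCAAT shares. The Col1a2 window held both CCAAT and GGGCGG, the Col3a1 window held TATAAA alone of the searched letters, and the Col4a4 window held none of them. The windows of Col4a1, which rose in R testes, and of Col4a5, which fell, each held CCAAT and GGGCGG.

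Collagen chain messages were more often higher than lower in R testes. Of the 44 members, 36 were well above background on at least 5 of 10 arrays and were tested. Of these, 14 rose in R testes (38.9%, against 14.9% of all 16735 genes tested) and 5 fell (13.9%, against 20.6% of all genes tested), with limma and an adjusted p under 0.05. The other 17 were not called. Of the 28 chains above background on all 10 arrays, 12 were among the rises and 4 among the falls. In a fit of only such probes, 15 chains were called higher and 4 lower, against 2596 and 3471 of 15289 genes. Col25a1 and Col19a1 are among the rises but passed the filter mainly through R arrays (4 R and 1 C for Col25a1, 5 R and 3 C for Col19a1). The median log2 change was 0.41 over the tested collagen chains and -0.03 over all genes tested. Of the 36 changes, 28 were above 0, against 47.0% of all genes tested.

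The study's own criterion also asked for a fold above 1.5 or under 0.66. It was met by 9 of the 36 chains (25%, against 9.9% of all genes tested), and all 9 were higher in R testes. These were Col1a1, Col25a1, Col19a1, Col3a1, Col4a4, Col7a1, Col6a5, Col1a2 and Col4a3, of which Col25a1 was above background on only 1 C array. The R and C arrays did not overlap for 7 of the 36 chains (19.4%, against 29.1% of all genes tested). Of the 36, 5 were higher in R testes (against 12.6% of all genes tested) and 2 lower (against 16.5%). No excess of rises is read from this measure, and the 5 include Col19a1, which was above background on 3 C arrays.

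The choice of scale moved these counts. With each array's median as its zero, 5 chains were called higher and 6 lower, against 909 and 6241 over all genes, and the median of all genes moved to -0.23. With the scaling constants of the authors' table, 16 chains were called higher and 1 lower, against 2918 and 2935 over all genes. These 3 scales differ by 1 constant per array, which shifts the change of every gene alike. The collagen median therefore lay 0.43 above the median of all genes under each of them. Under settings that could move this gap, it was 0.34 with quantile normalisation and 0.31 with normexp background correction. Each of the 19 called chains kept its sign under the 3 scales. The share that rose was above that of all genes among dim and among bright probes: of 27 tested chains with a mean below the 75th percentile, 9 rose (33.3%, against 12.9% of all such genes), and of 9 chains above it, 5 rose (55.6%, against 17.1%). Falls were 3 of the 27 (11.1%, against 21.4%) and 2 of the 9 (22.2%, against 19.8%). The rises among dim chains include Col25a1 and Col19a1.

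**Figure D1:**
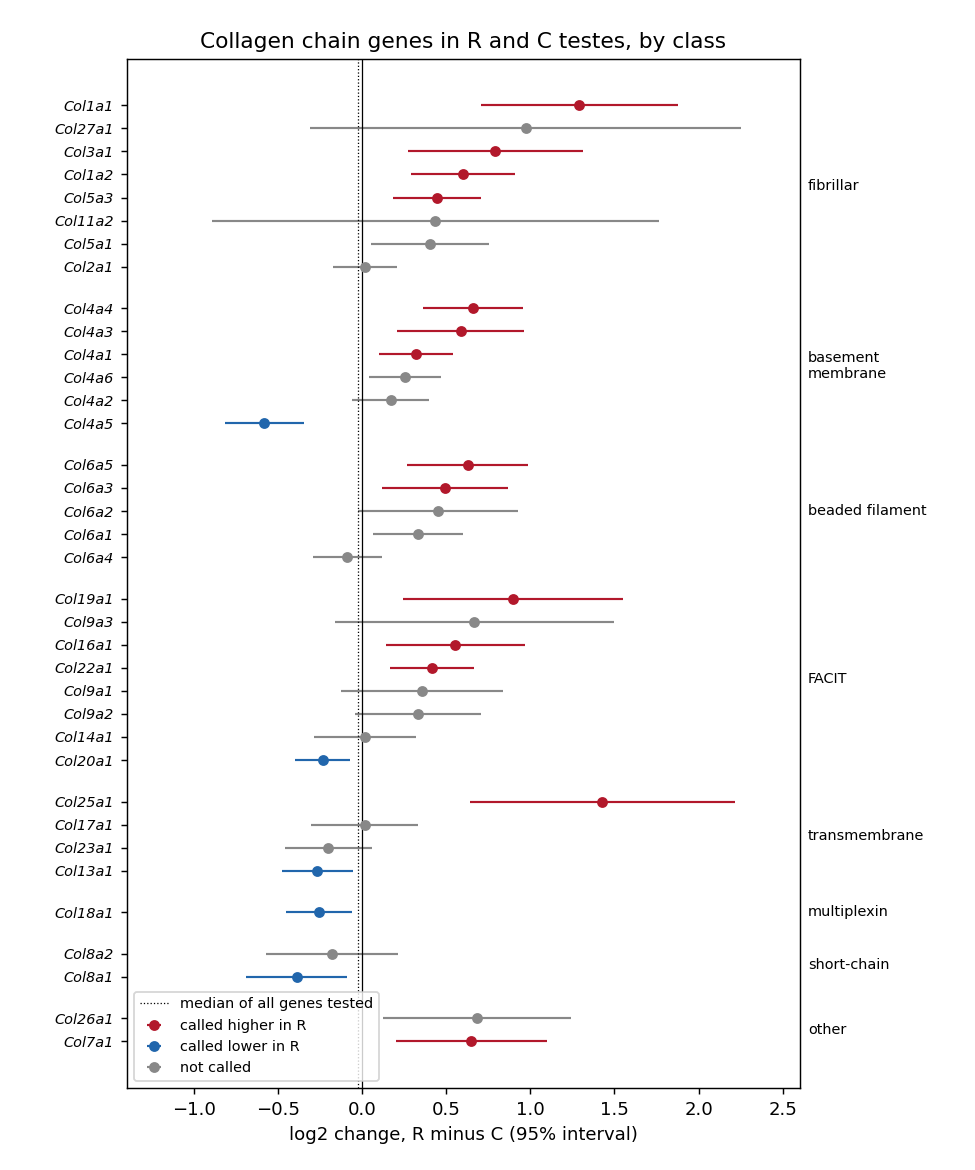
Log2 change, R minus C, with its 95% interval for the 36 tested collagen chain genes, ordered by class. Red points were called higher and blue points lower in R testes, grey points were not called, and the dotted line is the median of all genes tested at -0.03. All 8 fibrillar points lie right of 0, and Col4a5 lies alone on the left among the type IV chains.

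Every called fibrillar chain was higher in R testes. Of 11 fibrillar chains, 8 were tested, 4 rose and 0 fell, with a median log2 change of 0.52. The 4 were both chains of type I, the chain of type III and the α3 chain of type V.

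Col1a1 encodes the α1 chain of type I collagen, the most plentiful fibrillar collagen of the body. Its log2 signal was 0.49, 0.51, 0.94, 1.05 and 0.86 in R testes, against -0.87, -0.22, -0.86, 0.41 and -1.05 in C testes. All R testes lay above all C testes, and C replicate 4 was the nearest C testis. Its log2 change was 1.29 (95% interval 0.70 to 1.88, adjusted p = 0.00616), a 2.45-fold difference, and it was 1.30 within slide 1 and 1.37 within slide 2. Its 3 probes gave 1.29, 1.24 and 1.47, and the call held in each of the 10 fits with 1 array left out.

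Col1a2, the partner chain of type I, stood at 2.95, 3.04, 3.26, 3.19 and 3.22 in R testes, against 2.41, 2.61, 2.31, 3.03 and 2.31 in C testes. R testes were higher than C testes except that C replicate 4 reached the level of the lowest R testes. The log2 change was 0.60 (95% interval 0.29 to 0.91, adjusted p = 0.00986), with 0.60 within slide 1 and 0.67 within slide 2, and leaving out any array kept the call. With each array's median as zero it was 0.39 (adjusted p = 0.0677), which was not a call.

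Col3a1, the only chain of type III collagen, which forms thin fibrils with type I, was at 0.92, 1.04, 1.24, 1.34 and 1.28 in R testes, against -0.28, 0.66, 0.19, 1.16 and 0.13 in C testes. The groups overlapped through C replicate 4 alone. The change was 0.79 (95% interval 0.27 to 1.31, adjusted p = 0.0248), and it was 0.94 within slide 1 and 0.79 within slide 2. The call was lost without R replicate 3, 4 or 5 or C replicate 5 (adjusted p up to 0.0567) and, at 0.59 (adjusted p = 0.0805), with each array's median as zero.

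Col5a3 encodes a chain of type V collagen, which starts and limits fibril growth. Its values were -3.68, -3.23, -3.76, -3.92 and -3.62 in R testes, against -4.06, -4.09, -4.08, -4.21 and -3.97 in C testes. The lowest R testis, R replicate 4, lay just above the highest C testis, and R replicate 2 was highest of all. The change was 0.44 (95% interval 0.18 to 0.70, adjusted p = 0.0164), with 0.43 within slide 1 and 0.47 within slide 2. The call was lost at 0.23 (adjusted p = 0.173) with quantile normalisation, at 0.24 (adjusted p = 0.154) with each array's median as zero and at 0.17 (adjusted p = 0.101) with normexp background correction. Col5a1, the main chain of type V, ranged from -2.39 to -1.79 in R testes and from -2.68 to -1.91 in C testes, with an uncalled change of 0.40 (95% interval 0.05 to 0.75, adjusted p = 0.0638).

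Col5a2, the other main chain of type V and the neighbour of Col3a1 on chromosome 1, was well above background on none of the 10 arrays. Its measured values were -7.37, -7.33, -6.71, -6.49 and -6.51 in R testes, against -7.35, -6.73, -6.99, -6.35 and -5.92 in C testes, and no fold is given. The cartilage chains Col2a1, Col11a2 and Col27a1 were tested and not called, with log2 changes of 0.02, 0.43 and 0.97. For Col27a1 the value was 0.35 without C replicate 2, which held by far its lowest signal. Col11a1 and Col24a1 were above background on too few arrays to be tested, and Col24a1 lay at -6.68 to -5.47 in R testes and at -6.55 to -4.81 in C testes other than C replicate 5, which had -1.71. Of 3 tested cartilage markers, 1 rose and 1 fell, with log2 changes from -0.29 to 0.22. Over all 5 listed markers, sums were 53.9 to 63.4 in R testes and 50.0 to 50.6 in C testes. These sums, in multiples of the array's 75th percentile, rest on the brightest markers, since the median log2 signal of the 5 was -4.19. They are therefore not read as an amount of cartilage. The part of cartilage markers in the collagen values was not tested.

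C replicate 4 was the highest C array for 9 of the 13 tested fibrillar and type VI chains, and R replicate 1 the lowest R array for 9 of the 13. Without C replicate 4, 18 collagen chains were called higher and 1 lower, against 2708 and 3699 over all genes.

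**Figure D2:**
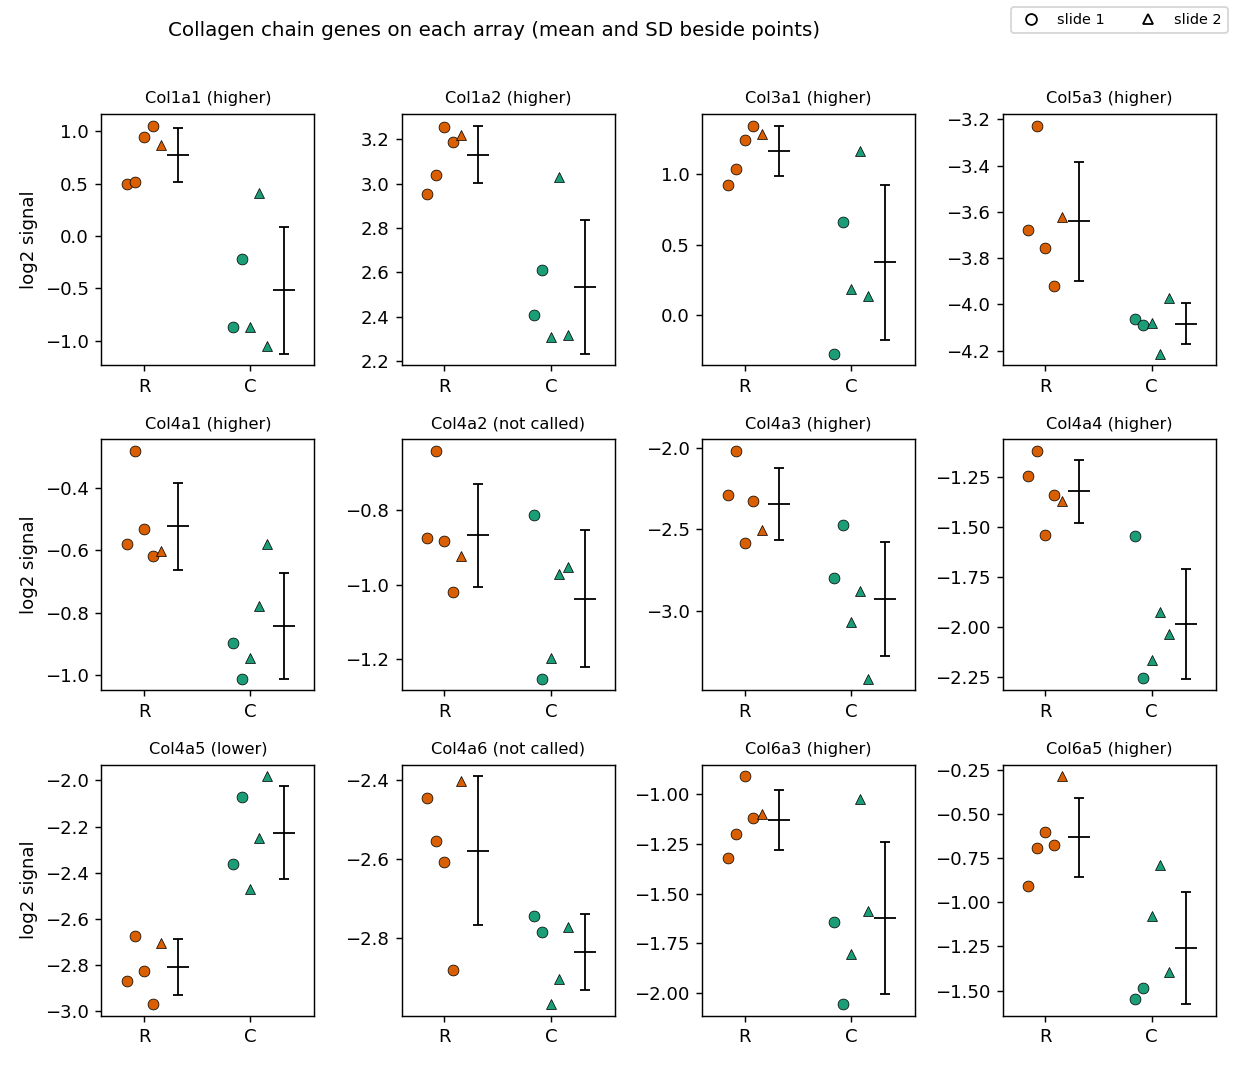
Log2 signal on each array for 12 collagen chain genes, with R testes left and C testes right in each panel, circles for slide 1, triangles for slide 2, and the mean with SD (n = 5 each) beside the points. C replicate 4 is the high triangle among C testes for Col1a1, Col1a2, Col3a1 and Col6a3, and the Col4a5 groups are apart in the other direction.

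The 6 chains of type IV collagen did not move alike. They assemble as 3 kinds of trimer: α1 with α2 in basement membranes throughout the body, α3 with α4 and α5, and α5 with α6. All 6 were above background on every array. Col4a1, Col4a3 and Col4a4 rose, Col4a5 fell, and Col4a2 and Col4a6 were not called, with a class median of 0.29.

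Col4a4 stood at -1.24, -1.12, -1.54, -1.34 and -1.37 in R testes, against -1.55, -2.25, -2.16, -1.93 and -2.03 in C testes. All R testes were above all C testes, although R replicate 3 and C replicate 1 nearly touched. The change was 0.66 (95% interval 0.36 to 0.96, adjusted p = 0.00592), with 0.59 within slide 1 and 0.67 within slide 2, and the call held with any array left out and with each array's median as zero.

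Col4a3, which lies beside Col4a4 on chromosome 1 in the opposite orientation and joins it in the same trimer, was at -2.29, -2.02, -2.58, -2.33 and -2.51 in R testes, against -2.80, -2.47, -3.07, -2.88 and -3.42 in C testes. C replicate 2 lay within the range of R testes, and the other C testes lay below all R testes. The change was 0.59 (95% interval 0.21 to 0.96, adjusted p = 0.0232), with 0.33 within slide 1 and 0.62 within slide 2, and the call was lost without R replicate 1 or 2 (adjusted p up to 0.0513). It was also lost at 0.43 (adjusted p = 0.0986) with quantile normalisation and at 0.38 (adjusted p = 0.152) with each array's median as zero.

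Col4a5, the X-linked remaining partner of that trimer, moved the other way. Its values were -2.87, -2.67, -2.83, -2.97 and -2.70 in R testes, against -2.36, -2.07, -2.47, -2.25 and -1.98 in C testes. Each R testis was below each C testis, and R replicate 2 was the nearest to the C testes. The change was -0.58 (95% interval -0.81 to -0.35, adjusted p = 0.00386), 1.50-fold lower in R testes, with -0.62 within slide 1 and -0.47 within slide 2, and the call held with any array left out. Mutations of COL4A3, COL4A4 and COL4A5 cause Alport syndrome in humans, a disease of the kidney's basement membrane.

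Col4a6, next to Col4a5 on the X chromosome, was at -2.44, -2.55, -2.61, -2.88 and -2.40 in R testes, against -2.74, -2.79, -2.97, -2.90 and -2.77 in C testes. R replicate 4 lay among the C testes, and the other R testes lay above them. The change was 0.26 (95% interval 0.04 to 0.47, adjusted p = 0.0579), which was not a call. Without R replicate 4 it was 0.33 and was called (adjusted p = 0.0187).

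Col4a1 was at -0.58, -0.28, -0.53, -0.62 and -0.60 in R testes, against -0.90, -1.01, -0.94, -0.78 and -0.58 in C testes. The groups overlapped through C replicate 5, and R replicate 2 was high. The change was 0.32 (95% interval 0.10 to 0.54, adjusted p = 0.0296), with 0.45 within slide 1 and 0.16 within slide 2, and the call was lost without R replicate 1, 2 or 3 or C replicate 1 or 3 (adjusted p up to 0.0586) and, at 0.11 (adjusted p = 0.369), with each array's median as zero. Col4a2, its partner in the trimer and on the other side of the shared bases printed above, was at -0.87, -0.64, -0.88, -1.02 and -0.92 in R testes, against -0.81, -1.25, -1.20, -0.97 and -0.95 in C testes. Those ranges overlapped widely, and the change was 0.17 (95% interval -0.06 to 0.40, adjusted p = 0.204). Whether the changes of Col4a1 and Col4a2 differ from each other was not tested.

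Of 8 endothelial markers, 4 rose in R testes (Kdr, Flt1, Vwf and Eng) and 0 fell. Their summed level, in multiples of the array's 75th percentile, was 2.94 to 3.38 in R testes and 1.84 to 2.61 in C testes. Of 8 Sertoli markers tested, 0 rose and 7 fell. Summed over all 9 listed Sertoli markers, levels were 19.6 to 22.5 in R testes and 23.0 to 42.3 in C testes. Of 7 Leydig markers 3 fell and of 7 macrophage markers 5 fell, with 0 rises in either list. Their part in the collagen values was not tested, and fewer cells of a type cannot be told apart from less RNA per cell in whole testes.

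Type VI collagen, a network of beaded filaments close to cell surfaces, was tested for 5 of its 6 chains. Col6a3 and Col6a5 rose and 0 fell, with a median log2 change of 0.45. Col6a1 and Col6a2, which join Col6a3 in the classic trimer, were not called.

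Col6a3 was at -1.32, -1.20, -0.91, -1.12 and -1.10 in R testes, against -1.64, -2.05, -1.80, -1.03 and -1.59 in C testes. C replicate 4 reached the R testes, and the other C testes lay below them. The change was 0.49 (95% interval 0.12 to 0.87, adjusted p = 0.0419), with 0.71 within slide 1 and 0.37 within slide 2. The call held only without C replicate 4 (log2 change 0.64, adjusted p = 0.00568) and was lost when any other array was left out (adjusted p up to 0.0903). It was also lost at 0.42 (adjusted p = 0.0549) with quantile normalisation, at 0.29 (adjusted p = 0.143) with each array's median as zero and at 0.38 (adjusted p = 0.0512) with normexp background correction.

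Col6a1 values were 0.61, 0.91, 0.74, 0.88 and 0.75 in R testes, against 0.37, 0.63, 0.30, 0.77 and 0.16 in C testes. C replicates 2 and 4 lay among the R testes. The change was 0.33 (95% interval 0.07 to 0.60, adjusted p = 0.0502), the first value beyond the threshold. Col6a2, its neighbour on chromosome 10, was at -3.47, -3.14, -2.96, -3.40 and -2.80 in R testes, against -3.90, -3.47, -3.80, -2.88 and -3.97 in C testes, with overlapping groups and a change of 0.45 (95% interval -0.03 to 0.93, adjusted p = 0.116).

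Col6a5, an alternative to the α3 chain, was at -0.91, -0.69, -0.60, -0.68 and -0.28 in R testes, against -1.55, -1.48, -1.07, -0.79 and -1.39 in C testes. R replicate 5 was highest, and C replicate 4 lay above the lowest R testis. The change was 0.63 (95% interval 0.27 to 0.99, adjusted p = 0.0148), with 0.80 within slide 1 and 0.80 within slide 2, and the call held with any array left out. Its other tested probe gave 0.30 and was not called (adjusted p = 0.282), nor was the mean of both probes at 0.46 (adjusted p = 0.0716). With each array's median as zero the change was 0.42 (adjusted p = 0.0506), just beyond the threshold. Col6a4, its neighbour on chromosome 9, had a change of -0.09 (95% interval -0.29 to 0.12, adjusted p = 0.456), and Col6a6 was above background on no array.

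FACIT chains, which carry interrupted triple helices and attach to fibrils, were tested for 8 of 9. Col16a1, Col19a1 and Col22a1 rose, Col20a1 fell, and the median log2 change was 0.38.

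Col22a1, a chain known from tissue junctions such as that of muscle and tendon, was at 0.47, 0.58, 0.63, 0.57 and 0.66 in R testes, against -0.11, -0.09, 0.39, 0.32 and 0.33 in C testes. All R testes were above all C testes, and C replicates 1 and 2, both of slide 1, were lowest. The change was 0.41 (95% interval 0.16 to 0.66, adjusted p = 0.0182), with 0.66 within slide 1 and 0.32 within slide 2. Its second probe gave -0.15 (adjusted p = 0.602), and the mean of both probes was not called (adjusted p = 0.459). With each array's median as zero the change was 0.21 (adjusted p = 0.124) and not called.

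Col19a1, found in vascular, neuronal and some epithelial basement membrane zones, was at -3.66, -3.93, -4.05, -4.14 and -3.91 in R testes, against -4.82, -5.99, -4.14, -4.37 and -4.85 in C testes. All R testes were above all C testes, although R replicate 4 and C replicate 3 nearly touched. It was above background on 5 R and 3 C arrays. The change was 0.90 (95% interval 0.24 to 1.55, adjusted p = 0.0365), with 1.46 within slide 1 and 0.55 within slide 2, and 0.61 without C replicate 2. The call was lost without R replicate 1, 2, 3, 4 or 5 or C replicate 1 or 5 (adjusted p up to 0.0804).

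Col16a1 was at 4.11, 3.86, 4.16, 4.17 and 4.15 in R testes, against 3.35, 2.90, 3.90, 3.96 and 3.56 in C testes. C replicates 3 and 4 lay above R replicate 2, and C replicate 2 was far below the rest. The change was 0.55 (95% interval 0.14 to 0.97, adjusted p = 0.0382), with 0.95 within slide 1 and 0.34 within slide 2, and 0.40 without C replicate 2. Its other probe gave 0.87 (adjusted p = 0.012). The call was lost without R replicate 1, 3, 4 or 5 or C replicate 1 or 5 (adjusted p up to 0.0777) and, at 0.35 (adjusted p = 0.0819), with each array's median as zero.

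Col20a1 fell, with values of 3.15, 3.12, 3.26, 2.94 and 3.25 in R testes, against 3.37, 3.44, 3.36, 3.42 and 3.31 in C testes. The groups did not overlap, and R replicate 4 was lowest. The change was -0.23 (95% interval -0.40 to -0.07, adjusted p = 0.0308), with -0.29 within slide 1 and -0.11 within slide 2, and the call was lost without R replicate 1, 2 or 4 or C replicate 1 or 4 (adjusted p up to 0.0652) and, at -0.17 (adjusted p = 0.0939), with the authors' scaling constants. Among the uncalled FACIT chains, the type IX chains Col9a1, Col9a2 and Col9a3, known from cartilage, had log2 changes of 0.36, 0.33 and 0.67, and Col14a1 had 0.01. Col12a1 was above background on too few arrays to be tested.

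**Figure D3:**
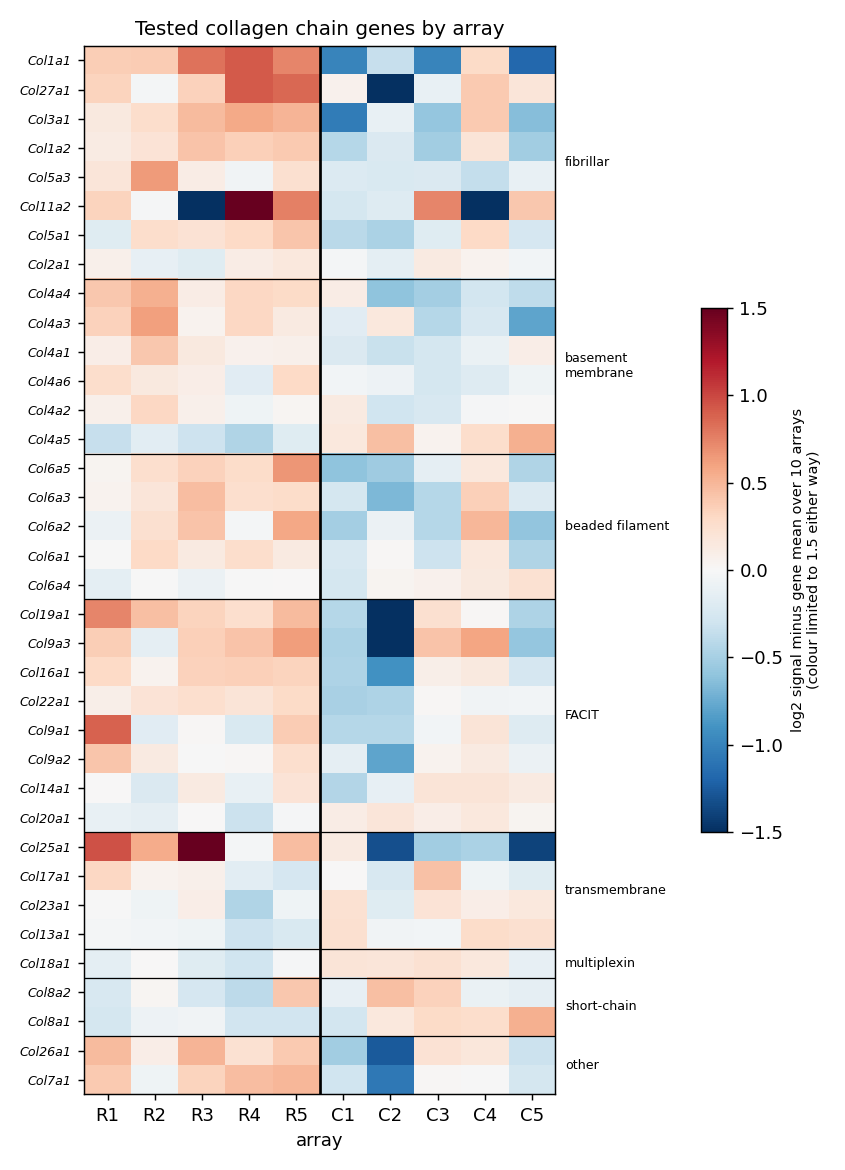
Log2 signal of the 36 tested collagen chain genes on each of the 10 arrays, minus the gene's mean over the arrays, with R testes left and C testes right of the vertical line and classes separated by horizontal lines. Red is above and blue below the gene's mean, and C replicate 2 is the bluest column, the lowest C array for 16 of 36 chains.

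Of 4 transmembrane chains tested, Col25a1 was called higher and Col13a1 lower, with a class median of -0.09. No direction is read for the class, since Col25a1 passed the filter mainly through R arrays. Col25a1, known from neurons as the precursor of a protein in amyloid plaques, was at -4.09, -4.49, -3.41, -5.08 and -4.58 in R testes, against -4.92, -6.36, -5.56, -5.53 and -6.43 in C testes. It was above background on 4 R arrays and 1 C array, and the groups overlapped through C replicate 1. The measured change was 1.43 (adjusted p = 0.0128), but the probe was not well above background on 4 of the 5 C arrays and passed the filter through the R arrays, so the value is a description. Its other probe, above background on 0 R arrays and 1 C array, was not tested and differed by 0.06.

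Col13a1, a chain of the neuromuscular junction, was at -4.07, -4.08, -4.10, -4.35 and -4.28 in R testes, against -3.80, -4.09, -4.09, -3.77 and -3.80 in C testes. C replicates 2 and 3 lay among the R testes. The change was -0.27 (95% interval -0.48 to -0.05, adjusted p = 0.0495), the weakest call of the 19, with -0.21 within slide 1 and -0.39 within slide 2. The call was lost without R replicate 1, 2, 3, 4 or 5 or C replicate 1, 4 or 5 (adjusted p up to 0.113), at -0.20 (adjusted p = 0.151) with the authors' scaling constants and at -0.15 (adjusted p = 0.157) with normexp background correction. Col17a1 and Col23a1 had uncalled changes of 0.01 and -0.20.

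The multiplexin Col18a1, whose cleavage product endostatin limits vessel growth, fell. Its values were 0.37, 0.53, 0.34, 0.23 and 0.51 in R testes, against 0.72, 0.71, 0.75, 0.68 and 0.40 in C testes. C replicate 5 lay among the R testes, and the other C testes lay above them. The change was -0.26 (95% interval -0.45 to -0.06, adjusted p = 0.0443), with -0.35 within slide 1 and -0.10 within slide 2, and the call was lost without R replicate 1, 3, 4 or 5 or C replicate 1, 2, 3 or 4 (adjusted p up to 0.102) and, at -0.19 (adjusted p = 0.11), with the authors' scaling constants.

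Col15a1, the other multiplexin, was above background on 1 R array and 0 C arrays and was not tested. Its measured values were -5.54, -5.56, -5.85, -6.13 and -6.55 in R testes, against -7.22, -7.62, -7.30, -6.93 and -7.09 in C testes. All R values were above all C values, but no fold is given for signals at background.

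Col8a1, a short-chain collagen of vessel walls and the cornea, fell. Its values were -0.81, -0.62, -0.60, -0.83 and -0.83 in R testes, against -0.82, -0.39, -0.26, -0.28 and -0.01 in C testes. C replicate 1 lay among the R testes, and the other C testes lay above them. The change was -0.39 (95% interval -0.69 to -0.09, adjusted p = 0.0437), with -0.11 within slide 1 and -0.65 within slide 2. The call held only without C replicate 1 (log2 change -0.51, adjusted p = 0.00715) and was lost without any other array (adjusted p up to 0.0905) or, at -0.33 (adjusted p = 0.0821), with the authors' scaling constants. Its partner Col8a2 had -0.18, uncalled, and Col10a1, the chain of hypertrophic cartilage, was above background on no array.

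Col7a1, the chain of the anchoring fibrils below epithelia, rose. It was at -1.10, -1.56, -1.16, -1.03 and -1.002 in R testes, against -1.79, -2.57, -1.47, -1.50 and -1.76 in C testes. R replicate 2 lay below C replicates 3 and 4, and C replicate 2 was lowest. The change was 0.65 (95% interval 0.20 to 1.10, adjusted p = 0.0302), with 0.97 within slide 1 and 0.58 within slide 2, and the call was lost without R replicate 1, 3, 4 or 5 or C replicate 1 or 5 (adjusted p up to 0.0662). Col26a1, first described in mouse testis and ovary, was not called at 0.68 (95% interval 0.12 to 1.24, adjusted p = 0.0538), and its 3 tested probes gave 0.68, 0.64 and 0.17. Col28a1 was not tested.

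All 19 called chains had the same sign within slide 1 and within slide 2. They were called on these same arrays, and slide 2 held 1 R testis, so this describes the values and is no separate test. With slide as a block, all 14 rises kept their call and 2 of the 5 falls did, those of Col4a5 and Col20a1. Without C replicate 2, 13 of the 14 rises and 3 of the 5 falls kept it, the losses being Col6a3, Col18a1 and Col8a1. Without R replicate 1 and C replicate 5 together, 6 chains were called higher (Col1a1, Col1a2, Col4a1, Col4a4, Col6a5 and Col22a1) and 2 lower (Col4a5 and Col18a1). Over all genes that fit called 958 higher and 1701 lower.

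Of 79 genes that make, bind or break down collagen, 65 were tested. Of these, 4 rose (6.15%, against 14.9% of all genes tested) and 18 fell (27.7%, against 20.6% of all genes tested), with a median log2 change of -0.15. Whether these genes differ from the chains was not tested. In triple helix assembly and secretion, 1 of 18 tested genes rose and 8 fell, with a median of -0.21. P4hb, the disulfide isomerase that is also a subunit of prolyl 4-hydroxylase, averaged 0.24 ± 0.13 in R testes and 0.86 ± 0.14 in C testes (SD, n = 5 each), a log2 change of -0.62, adjusted p = 0.00192. Also lower were Tmem38b, an ion channel of the endoplasmic reticulum (-0.54, adjusted p = 0.00444), the lysyl hydroxylase Plod3 (-0.39, adjusted p = 0.00385) and the galactosyltransferase Colgalt1 (-0.42, adjusted p = 0.0176).

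Among 9 tested genes of propeptide cleavage and cross-linking, 1 rose and 0 fell. It was Pcolce2, an enhancer of C-propeptide removal, at -2.26 ± 0.23 in R testes and -3.05 ± 0.33 in C testes (SD, n = 5 each), a change of 0.80, adjusted p = 0.00677. Of 9 tested collagen receptor genes, 1 rose and 1 fell: Itga11, the integrin α11 chain that binds fibrillar collagen, rose (0.29, adjusted p = 0.0446), and Itgb1, the β1 chain it pairs with, fell (-0.42, adjusted p = 0.0211). With each array's median as zero, Itga11 was 0.09 (adjusted p = 0.416) and not called. The medians of these lists, 0.11 and 0.23, were -0.09 and 0.02 with each array's median as zero, so no direction is read from them.

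Of 11 collagen-binding matrix proteins, 0 rose and 4 fell, with a median of -0.36. They were Ogn and Bgn, small leucine-rich proteoglycans that bind collagen (-0.83, adjusted p = 0.016 and -0.36, adjusted p = 0.0383), the adhesive protein Fn1 (-0.46, adjusted p = 0.00142) and the collagen-binding Sparc (-0.36, adjusted p = 0.0432). The call of Bgn was lost at -0.30 (adjusted p = 0.058) with the authors' scaling constants and at -0.21 (adjusted p = 0.0575) with normexp background correction. Of 12 partners of type IV collagen in the basement membrane, 1 rose and 4 fell. Hspg2, which encodes perlecan, rose (0.40, adjusted p = 0.0264), while the nidogens Nid1 (-0.40, adjusted p = 0.00791) and Nid2 (-0.28, adjusted p = 0.0117), the laminin chain Lamb1 (-0.36, adjusted p = 0.0211) and Agrn (-0.27, adjusted p = 0.0259) fell. The calls of Nid1 and Lamb1 rest on their brightest probes: the mean over the tested probes was 0.059 for Nid1 (adjusted p = 0.65) and -0.03 (adjusted p = 0.787) for Lamb1, and neither was called. Hspg2 was 0.19 (adjusted p = 0.105) with each array's median as zero, and Nid2 -0.22 (adjusted p = 0.0683) with the authors' scaling constants, which were not calls. Of 6 genes of collagen breakdown and its inhibitors, 0 rose and 1 fell, the protease Ctsk (-0.31, adjusted p = 0.0274).

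**Figure D4:**
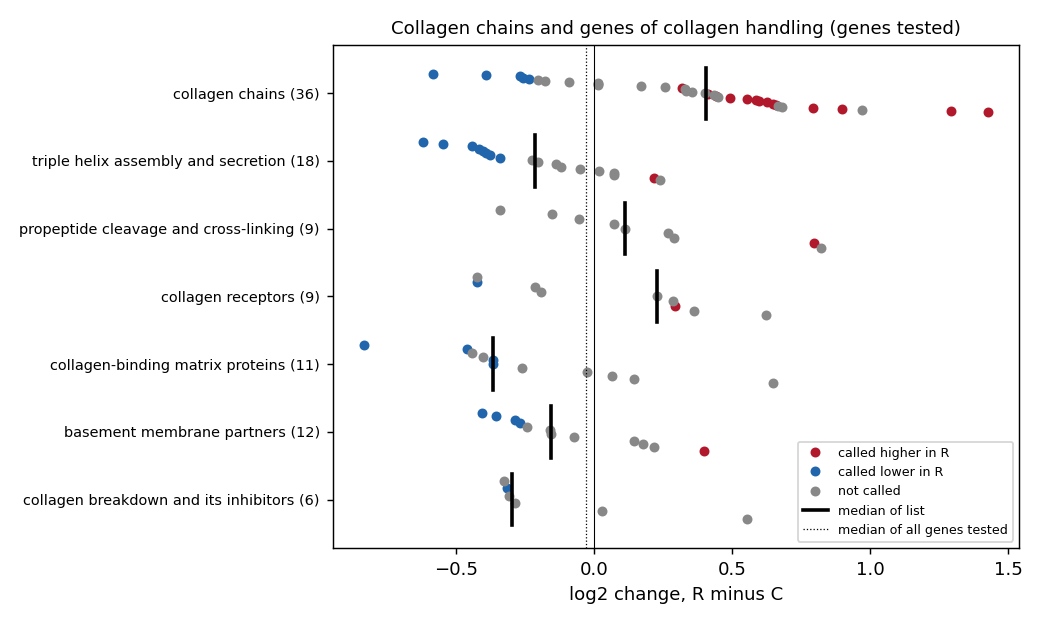
Log2 change, R minus C, of each tested gene in the collagen chains and in 6 lists of genes that handle collagen, 1 point per gene, with the number tested in parentheses. Red points were called higher and blue points lower in R testes, the bar is the list's median, and the dotted line is the median of all genes tested at -0.03. The bar lies at 0.41 for the chains, at -0.21 for assembly and secretion and at -0.36 for binding proteins.

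Markers of the cells that make interstitial collagen did not move as a block. Of 8 markers of peritubular myoid and smooth muscle cells, 1 rose and 1 fell, with summed levels of 18.4 to 22.5 in R testes and 19.3 to 25.6 in C testes. Of 6 tested fibroblast and tunica markers, 1 rose and 2 fell. Sums over all 7 listed were 5.56 to 8.09 in R testes and 6.75 to 11.3 in C testes. The fibroblast marker that rose was Pdgfrb, also a pericyte gene, at 0.97. Of 8 adipocyte markers, 0 were called, with sums of 3.52 to 13.1 in R testes and 2.38 to 8.75 in C testes, the highest being R replicate 2 and C replicate 2. Their part in the collagen values was not tested.

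The authors' deposited table of 2266 probes held 3 of the chains. In the authors' deposited table, whose groups differ from the labels in 2 arrays, the log2 ratio was 0.35 for Col4a1, 0.37 for Col22a1 and -0.21 for Col18a1, with unadjusted p-values of 0.0157, 0.0333 and 0.0338. The q-value in the authors' deposited table was 0.515 for each.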

How the data were processed

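Testis RNA of 5 R and 5 C mice was labelled with Cy3 and read on 1-colour Agilent arrays, per the labels. The deposited spot intensity values were read out with Agilent Feature Extraction (version 12.0.3.1 in the submitters' processing notes). The processed intensity was background-subtracted within an array and not normalised between arrays, per the file headers, which name mm9. Background, saturation and outlier flags came from the same deposited files. The authors also deposited a table of p-values, q-values, log2 ratios and scaled intensity values. Its methods are not given in these sources, and 10 columns of per-sample values in it were not used.

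Outlier and control spots were removed, and spots of 1 probe were averaged. Values are processed intensities on the log2 scale, less each array's own 75th percentile over spots. Accessions were looked up in a GRCm38 gene table, which named 33767 of 56605 probes, and a gene stood for its brightest probe. The 33851 probes that 5 or more arrays showed well above background were tested 2-sided with limma 3.58.1 (R 4.3.3), with Benjamini-Hochberg adjustment over all of them. A call is an adjusted p under 0.05. Percentages of all genes are over 16735 named genes.

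The members, gene lists and tests were chosen with earlier results of these data known. Each chain could be named; all 10 values are given for called chains and for Col4a1 to Col4a6, Col5a2, Col6a1 to Col6a3 and Col15a1, and up to 4 called genes are named per list. Alternatives covered background correction, scaling, filter, probe rule, variance model, slide, grouping and left-out arrays. The normexp alternative used the median spot intensity of the deposited files. On simulated data with 200 of 33851 probes changed, 68% of 2-fold and 96% of 4-fold changes were recovered, and 12 of 33651 unchanged probes were called. The simulated noise was independent between probes and held no slide effect, whereas 35.6% of genes were called in the measured data. These rates therefore need not hold for the calls above. The number of arrays limits the precision.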

Additional observations from a re-analysis of the deposited data

Results flagged for a closer look

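In 6 of 88 groups of 5 arrays, over the 44 chains, 1 array lay far from the other 4, and chance alone gives about 1 in 20 groups. R replicate 2 had Col16a1 at 3.86, and the other R testes had 4.11 to 4.17. Col7a1 was at -1.56 in the same testis, with the other R testes between -1.16 and -1.002. Col4a1 was highest there, at -0.28, against -0.62 to -0.53. C replicate 2 had Col9a2 at -5.14, against -4.47 to -4.21 in the other C testes, and Col27a1 at -7.71, against -4.85 to -4.36. Col18a1 was at 0.40 in C replicate 5, against 0.68 to 0.75 in the other C testes.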

How the results depend on the processing

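The count of chains called higher in R testes was 14. It was 8 with no filter on background, where 1527 of all 23460 genes were called higher and 2258 lower. There Col15a1 joined Col1a1, Col1a2, Col4a4, Col5a3, Col6a5, Col22a1 and Col25a1. Col15a1 was above background on 1 R array and 0 C arrays, and Col25a1 on 4 R arrays and 1 C array, so both calls rest on signals near background. The count was 5 with each array's median as zero. Slide 2 held 1 R array, so no count is read from the fit within it. Under the grouping of the authors' table the count was 0 (3 at an unadjusted p under 0.05). That fit called 0 of all 16735 genes in either direction, and 1286 genes had an unadjusted p under 0.05, so its 0 is not particular to collagen. The count was 6 without R replicate 1 and C replicate 5. The count of chains called lower was 5. It was 1 (Col4a5) with no filter and 1 with the authors' scaling constants, 2 with slide as a block, 2 within slide 1, 2 without R replicate 1 and C replicate 5, and 2 without C replicate 2 with slide as a block. It was 0 under the table's grouping (1 unadjusted), where 0 of all genes were called. Leaving out 1 array at a time gave 8 (without R replicate 3) to 18 (without C replicate 4) higher and 1 to 3 lower. Under the other alternatives run, both counts stayed within 1.5 times. For single genes, 1088 values kept direction and call, 276 lost the call, 31 gained it and 1 reversed: Nid1 was 0.059 (adjusted p = 0.65) as the mean of its tested probes. The no-filter fit tests more probes, and the slide fits use fewer arrays. For the other settings the cause was not tested. Of the 19 called chains, 8 kept their call with any array left out. The percentile over averaged probes and the fit without C replicate 2 with slide as a block were chosen after seeing the data. No paired analysis was possible because the labels give no replicate numbers, and those used here follow accession order. Col25a1 and Col19a1 lay near background, with standard errors of 0.35 and 0.30 for the log2 change. The largest standard errors among the tested chains were 0.60 for Col11a2 and 0.58 for Col27a1.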
